A study of Mus musculus with 21 samples.

Results

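The subunit genes of the IL-12 family of cytokines were followed: Il12a, Il12b, Il23a, Il27 and Ebi3. They were chosen by name, as the genes that encode the chains of IL-12, IL-23 and IL-27, and all 5 were found among the 23250 genes of the deposited table. The experiment tested what soluble mannose receptor does to macrophages without receptor of their own. Marrow of C57BL/6J mice was grown for 7 days with supernatant of cells that secrete GM-CSF, a growth factor that gives macrophages and dendritic-like cells, and the series describes all cells as deficient in the mannose receptor (MR, gene Mrc1). One group was taken untreated at 0 h, and the others received FcMR or an isotype control for 4, 12 or 24 h. FcMR is a fusion of the Fc part of human IgG1 with the extracellular region of MR, so the receptor reached these cells only as an added protein. The deficiency was shared by all 7 groups, and each group held 3 libraries, 21 in all. No untreated library was taken later than 0 h, so time in culture and the isotype protein cannot be told apart where isotype is set against untreated. Nothing states that replicates came from separate mice or cultures, so p-values measure the spread between these libraries, which may be technical.

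IL-12 family cytokines are heterodimers of a cytokine-like alpha chain and a receptor-like beta chain. Il12b encodes the beta chain shared by IL-12 and IL-23, which pairs with the product of Il12a or of Il23a. Ebi3 encodes the beta chain of IL-27, which pairs with the product of Il27, and Ebi3 can also pair with the Il12a product in IL-35. Macrophages and dendritic cells make these cytokines after microbial or inflammatory stimulation. IL-12 drives interferon-gamma responses of T and NK cells, IL-23 sustains T cells that make IL-17, and IL-27 both promotes and restrains T cell responses.

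The 5 genes lie on 5 different chromosomes of GRCm38. Il12a (ENSMUSG00000027776.12) is at chr3:68690644-68698547 on the plus strand and Il12b (ENSMUSG00000004296.14) at chr11:44400063-44414033 on the plus strand. Il23a (ENSMUSG00000025383.2) is at chr10:128296139-128298752 on the minus strand. Il27 (ENSMUSG00000044701.5) is at chr7:126589010-126594941 on the minus strand and overlaps Apobr on the opposite strand. Ebi3 (ENSMUSG00000003206.6) is at chr17:55952640-55957022 on the plus strand and overlaps the antisense gene Gm16712. The library kit was not stated to keep strand, so reads of these overlaps cannot be assigned to one gene with certainty.

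A feature that the choice of genes did not use is the AU-rich sequence of the 3′ UTR, which was dense in Il12a, Il12b, Il23a and Il27 and less so in Ebi3. The pentamer ATTTA, written here in DNA letters, is the core of the AU-rich elements that bind mRNA decay proteins such as the product of Zfp36. It occurred 6 times in the 497 nt 3′ UTR of Il12a, 6 times in 774 nt for Il12b, 6 times in 657 nt for Il23a, 5 times in 285 nt for Il27 and once in 245 nt for Ebi3. Of 20636 mouse 3′ UTRs, 61.6% held at least 1 copy, and the median density was 0.112 per 100 nt. Il27 had 1.75 per 100 nt, above 99.7% of 3′ UTRs, Il12a 1.21 (above 99.2%), Il23a 0.913 (above 98.3%), Il12b 0.775 (above 97.3%) and Ebi3 0.408 (above 87.6%). The 30-base window of each 3′ UTR (GENCODE M21, sense strand of the transcript) with the most copies follows, with each ATTTA in capitals.
Il12a, bases 384 to 413 of the 3′ UTR: gcctATTTAtATTTATTTAttttctATTTA
Il12b, bases 237 to 266: ATTTAagtaATTTAtgtATTTAttaATTTA
Il23a, bases 580 to 609: agtatagatgatggttATTTAttctATTTA
Il27, bases 176 to 205: ccagatATTTAtttcttggatATTTATTTA
Ebi3, bases 182 to 211: ggtgcggggctttgtgaactttgtgATTTA
The Il12a and Il12b windows held 4 copies each, the Il27 window 3, the Il23a window 2 and the Ebi3 window 1. A match is a description of the sequence, and mRNA stability was not measured.

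The RefSeq promoter table (GRCm38.p6) held windows for 3 of the 5 genes, Il12a, Il12b and Ebi3. The 250 bases before the start were searched on both strands for a kappaB site (GGGRNNYYCC, where R is A or G, Y is C or T and N is any base). They were also searched for the motifs of AP-1 (TGANTCA), of a cyclic AMP response element (TGACGTCA), of C/EBP (TTGCNNAA), of an interferon-stimulated response element (GAAANNGAA) and of PU.1 (GAGGAA). The TATAAA box was searched as well. The motifs with a match are shown for Il12b and Ebi3, the beta chains of the 2 kinds of dimer, with matches in capitals.
Il12b, chr11:44399813-44400062, plus strand: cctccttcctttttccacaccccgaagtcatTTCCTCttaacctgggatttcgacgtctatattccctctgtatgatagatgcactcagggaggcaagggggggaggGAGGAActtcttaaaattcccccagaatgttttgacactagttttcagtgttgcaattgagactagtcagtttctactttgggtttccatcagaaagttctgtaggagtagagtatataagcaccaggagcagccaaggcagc
Ebi3, chr17:55952373-55952622, plus strand: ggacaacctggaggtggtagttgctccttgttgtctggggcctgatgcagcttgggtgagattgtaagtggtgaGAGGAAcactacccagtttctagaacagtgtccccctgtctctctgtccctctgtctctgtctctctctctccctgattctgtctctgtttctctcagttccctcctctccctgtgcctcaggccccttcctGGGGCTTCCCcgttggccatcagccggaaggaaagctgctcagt
The Il12b window held 2 PU.1 matches, 1 on each strand, that began 219 and 143 bases before the start. The Ebi3 window held a PU.1 match that began 176 bases before the start and a kappaB match from 44 to 35 bases before it. None of these matches overlapped another motif searched. Of 32851 promoter windows, 23.3% held a PU.1 match and 7.3% a kappaB match. AP-1 was in 6.7%, the cyclic AMP element in 1.5%, C/EBP in 9.6%, the interferon element in 7.1% and the TATAAA box in 12.4%. The 2 Il12a windows held no match to these letters. The patterns allow no mismatch, so a missing match, as of kappaB or C/EBP in Il12b, does not show that the window lacks such a site.

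The 21 libraries held 5532225 to 66729533 estimated counts. Mrc1 had 0 to 11 counts and at most 0.589 CPM (counts scaled by library size, with TMM factors) in every library. Macrophage markers were found in every library and summed to 20410 to 35840 CPM over 8 genes, most of it from Lyz2 (16640 to 30530 CPM). The others lay between 53.7 CPM, the lowest of Fcgr1, and 1804 CPM, the highest of Itgam. Markers of T and NK cells summed to at most 2.07 CPM over the 4 of 6 genes in the table. Libraries differed in GC tilt, which sets the mean log2 level of GC-rich transcripts (57.7% or more) against that of GC-poor ones (42.3% or less) and is centred over the 21 libraries. The tilt was -0.83, -1.59 and 0.64 in isotype 4 h replicates 1 to 3, and -0.73, 0.70 and 0.80 in FcMR 12 h replicates 1 to 3, so that isotype 4 h replicate 3 and FcMR 12 h replicate 1 each differed in sign from their groups. In FcMR 24 h replicates 1 to 3 it was -0.35, -1.26 and 0.41, so replicate 3 differed in sign there too. Isotype 4 h replicate 3 and FcMR 12 h replicate 1 also stand in each other's place in the order of the title numbers. Below, the 2 libraries of unlike tilt are these 2 only, and FcMR 24 h replicate 3 stays in fits without them. For Il27 and Ebi3, whose transcripts are rich in GC (56.2% and 57.4%), values without both libraries are given for FcMR against isotype, and for other comparisons where leaving them out, or correcting for GC content, changed the call, the direction or the fold by over 1.5 times.

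FcMR raised all 5 subunit mRNAs above isotype at 4 h, Il12a, Il12b, Il27 and Ebi3 at 12 h, and Il12a, Il12b and Ebi3 at 24 h. Il23a, the alpha chain of IL-23, was transient: it was high at 4 h and close to its untreated level at 12 h. Il12a, the alpha chain of IL-12, stayed high with FcMR at all 3 times, while it fell in isotype, so its log2 difference was highest at 24 h. At 4 h edgeR called 5 of 5 genes at an adjusted p under 0.05, where 17.7% of the 13468 genes tested were called. At 12 h it called the 4 genes other than Il23a, where 16.1% were called, and at 24 h 3 of 5, where 20.9% were called. The 5 genes did not overlap between FcMR and isotype libraries at 4 h. Il12a, Il12b, Il27 and Ebi3 did not at 12 h, and Il12a, Il12b and Ebi3 did not at 24 h. Over all genes 29.7%, 35.4% and 34.4% did not overlap at these times. All 5 genes passed the filter on low counts, but Il23a passed it through the 4 h libraries alone, where it is high. It was called at 12 h as well and did not overlap there, from 2 to 12 counts a library, and is left out of both 12 h counts. With only the 12 h groups fitted, Il23a did not pass the filter and was not tested.

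**Figure D1:**
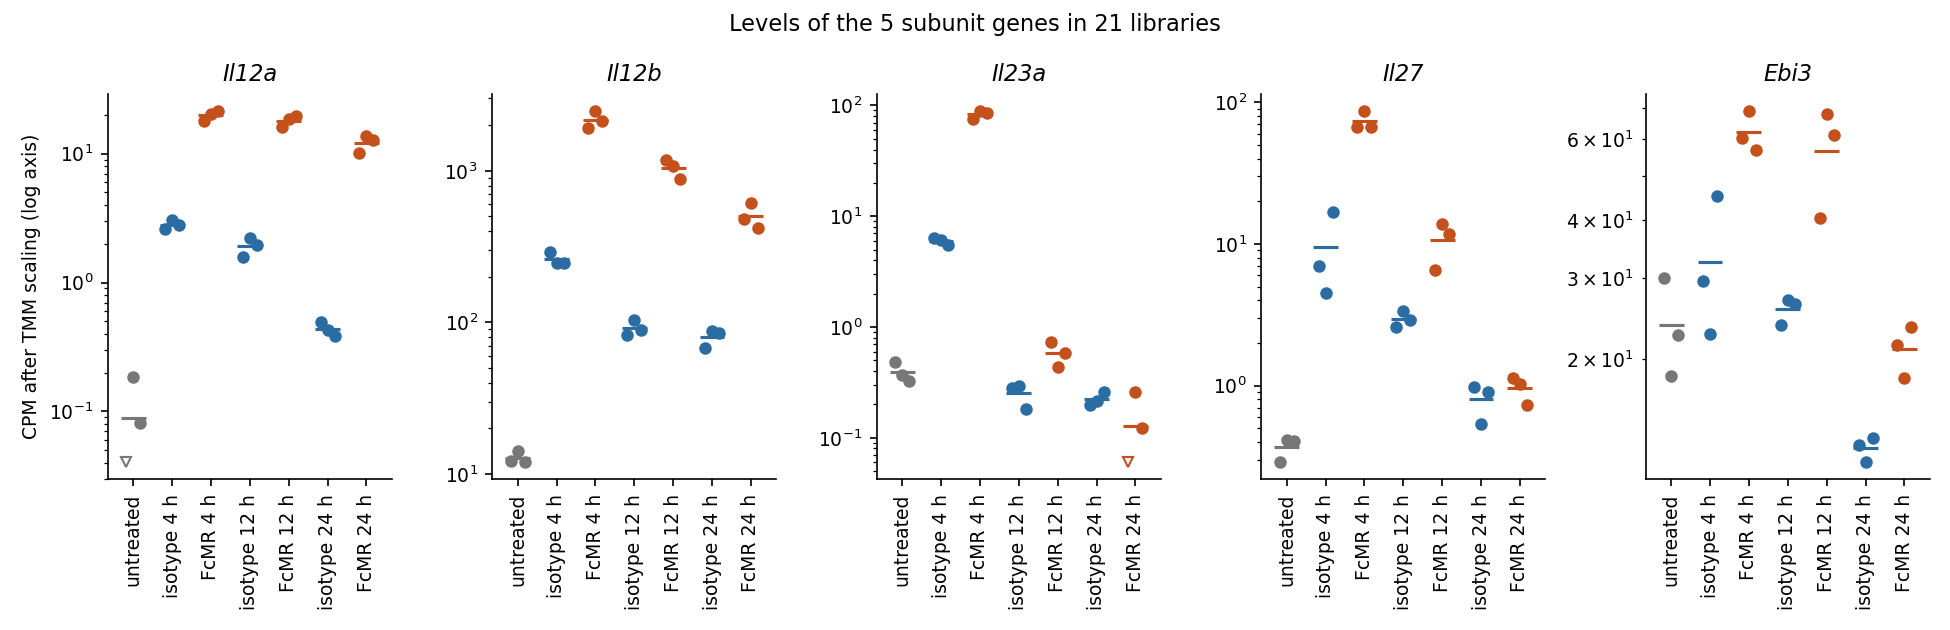
Level of each subunit gene in the 21 libraries, in CPM after TMM scaling on a log axis that differs between panels. Filled points are libraries, horizontal lines are means of 3, and open triangles are libraries with 0 counts, drawn at the bottom; Il23a with FcMR was at 74.9 to 89 CPM at 4 h and at most 0.734 CPM later, while Il12a with FcMR stayed at 10.1 CPM or above.

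Il12b, the shared beta chain, had the highest level per length of the 5 in every FcMR library. Untreated libraries had 12.2, 14.3 and 12.1 CPM. Isotype libraries had 290.1, 246 and 247 CPM at 4 h, 82.3, 103 and 89.6 at 12 h, and 68.2, 88.0 and 84.8 at 24 h. FcMR libraries had 1904, 2479 and 2128 CPM at 4 h, 1176, 1072 and 884 at 12 h, and 480, 616 and 419 at 24 h. Every FcMR library was above every isotype library of any time, and every isotype library was above every untreated one. The means fell from FcMR 4 h over FcMR 12 h, FcMR 24 h, isotype 4 h, isotype 12 h and isotype 24 h to untreated, and only isotype 12 h and 24 h overlapped among neighbours in that order. The log2 fold change of FcMR against isotype was 3.06 (SE 0.162, edgeR adjusted p 1.51e-09) at 4 h. It was 3.51 (SE 0.166, edgeR adjusted p 2.61e-10) at 12 h and 2.65 (SE 0.161, edgeR adjusted p 1.78e-09) at 24 h.

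Il12a completes IL-12 and lay far below Il12b per length in every library. Untreated libraries held 0, 4 and 1 counts. Isotype libraries had 2.59, 3.07 and 2.78 CPM at 4 h, 1.57, 2.2 and 1.97 at 12 h, and 0.491, 0.429 and 0.386 at 24 h, the last from 5, 4 and 3 counts. FcMR libraries had 18.1, 20.2 and 21.4 CPM at 4 h, 16.2, 18.6 and 19.5 at 12 h, and 10.1, 13.6 and 12.8 at 24 h. FcMR at 4 and 12 h overlapped, and all other neighbours in the order of means were apart, from FcMR 24 h over isotype 4, 12 and 24 h to untreated. The log2 fold change of FcMR against isotype was 2.82 (SE 0.205, edgeR adjusted p 5.89e-08) at 4 h and 3.26 (SE 0.198, edgeR adjusted p 6.38e-09) at 12 h. At 24 h it was 4.77 (SE 0.261, edgeR adjusted p 5.08e-10), against an isotype level that rests on those few counts.

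Il23a completes IL-23 and was detected well at 4 h only. Untreated libraries had 0.486, 0.368 and 0.327 CPM from 5, 8 and 4 counts. At 4 h isotype libraries had 6.32, 6.13 and 5.45 CPM and FcMR libraries 74.9, 89 and 86.3. At 12 h isotype libraries had 0.28, 0.293 and 0.182 CPM from 5, 2 and 12 counts, and FcMR libraries 0.734, 0.437 and 0.583 CPM from 10, 5 and 12 counts. Both 4 h groups stood above all others, and at 12 h the FcMR libraries overlapped the untreated ones. At 24 h each isotype library held 2 counts and the FcMR libraries held 0, 7 and 1, so the groups overlapped near the limit of detection. The level with FcMR at 4 h was at least 250-fold higher than in isotype at 24 h, when set against the mean level that 3 counts per library would give (0.334 CPM).

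At 4 h Il23a had the highest fold change of the 5, with a log2 difference between FcMR and isotype of 3.81 (SE 0.194, edgeR adjusted p 8.86e-10). At 12 h the difference was 1.41 (SE 0.336, edgeR adjusted p 0.00639), and it lost the call without isotype 12 h replicate 3 (1.03, edgeR adjusted p 0.257) or without FcMR 12 h replicate 1 (1.25, edgeR adjusted p 0.0524). At 24 h it was -0.34 (edgeR adjusted p 0.844). Without FcMR 24 h replicate 1 this value was 0.01 (edgeR adjusted p 0.993), so no direction can be read from it.

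Il27, the alpha chain of IL-27, also peaked at 4 h but declined more slowly than Il23a. Untreated libraries had 0.292, 0.414 and 0.409 CPM from 3, 9 and 5 counts. Isotype libraries had 7.04, 4.51 and 16.8 CPM at 4 h, 2.58, 3.37 and 2.91 at 12 h, and 0.981, 0.536 and 0.901 at 24 h. FcMR libraries had 67.2, 86.8 and 67.5 CPM at 4 h, 6.53, 13.8 and 11.8 at 12 h, and 1.13, 1.03 and 0.732 at 24 h. FcMR 4 h stood apart at the top, FcMR 12 h overlapped isotype 4 h, and both 24 h groups overlapped each other but lay above untreated. The high value of isotype 4 h replicate 3 and the low one of FcMR 12 h replicate 1 are those of the 2 libraries of unlike tilt.

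The log2 difference of Il27 between FcMR and isotype was 2.93 (SE 0.335, edgeR adjusted p 9.6e-06) at 4 h, and 3.66 (edgeR adjusted p 3.61e-09) without both of these libraries. It was 1.88 (SE 0.345, edgeR adjusted p 0.000771) at 12 h, and 2.13 (edgeR adjusted p 2.47e-07) without them. At 24 h it was 0.29 (edgeR adjusted p 0.791), and 0.30 (edgeR adjusted p 0.585) without them. With a correction for GC content the values were 2.95, 2.04 and 0.58, of which the last was not called (edgeR adjusted p 0.31).

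Ebi3, the beta chain of IL-27, had the highest level per length in untreated cells and the smallest fold change of the 5 at 4 h. Untreated libraries had 30.02, 18.5 and 22.6 CPM. Isotype libraries had 29.6, 22.7 and 45.3 CPM at 4 h, 23.7, 26.9 and 26.4 at 12 h, and 13.1, 12.0 and 13.5 at 24 h. FcMR libraries had 60.4, 69.1 and 56.8 CPM at 4 h, 40.4, 68.1 and 61.3 at 12 h, and 21.5, 18.3 and 23.5 at 24 h. FcMR at 4 and 12 h overlapped, and each group down to FcMR 24 h overlapped its neighbour in the order of means, while isotype 24 h stood apart at the bottom.

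The log2 difference of Ebi3 between FcMR and isotype was 0.93 (SE 0.224, edgeR adjusted p 0.00723) at 4 h and 1.14 (SE 0.221, edgeR adjusted p 0.00124) at 12 h. Without both libraries of unlike tilt these were 1.25 (edgeR adjusted p 7.58e-05) and 1.33 (edgeR adjusted p 1.23e-05). At 4 h the call was lost when only the 6 libraries compared were fitted (0.92, edgeR adjusted p 0.067). At 24 h the difference was 0.71 (edgeR adjusted p 0.0395). Its size hardly moved when 1 library was left out (0.63 to 0.81), but the call was lost without any 1 of the isotype 24 h libraries and without FcMR 24 h replicate 1 or 3, with edgeR adjusted p-values of 0.0666 to 0.106. It was also lost without the filter on low counts (adjusted p 0.0511) and with limma-voom (adjusted p 0.094), while without both libraries of unlike tilt it was kept (0.71, edgeR adjusted p 0.0032). With GC correction the 3 differences were 0.90, 1.36 and 0.95 and all were called.

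**Figure D2:**
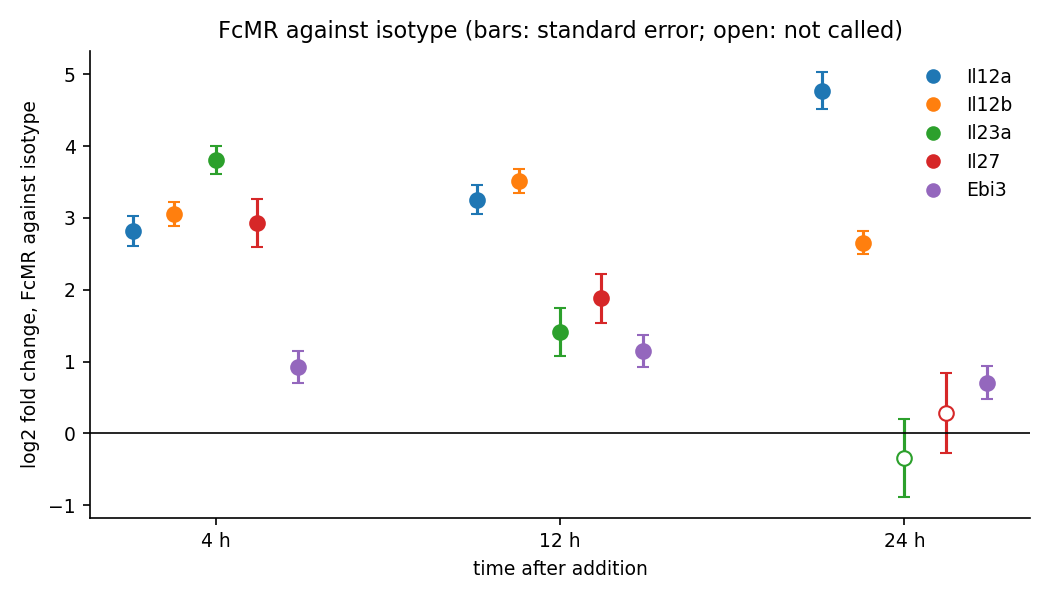
Log2 fold change of FcMR against isotype for the 5 subunit genes at 4, 12 and 24 h, with the standard error from edgeR; filled points were called at an adjusted p under 0.05. Il12a rose from 2.82 to 4.77 over the 3 times, while Il23a went from 3.81 to -0.34 and Ebi3 stayed between 0.71 and 1.14.

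Whether the FcMR effect itself differed between times was tested in the same fit. Over the 3 times jointly, edgeR called Il23a (adjusted p 0.000118), Il12a (adjusted p 0.00396), Il27 (adjusted p 0.0344) and Il12b (adjusted p 0.0358), and not Ebi3 (adjusted p 0.673). Over all genes 11% were called. Il23a is in this test only through the 4 h libraries, by which it passed the filter. It held 2 to 12 counts a library at 12 h and 0 to 7 at 24 h. The calls of Il12b and Il27 were close to the threshold. That of Il12b was lost without any 1 of 12 libraries (isotype 4 h replicate 2, the 3 FcMR 4 h libraries, isotype 12 h replicates 1 and 3, FcMR 12 h replicates 1 and 2, isotype 24 h replicates 2 and 3, FcMR 24 h replicates 1 and 3), with an edgeR adjusted p of up to 0.0962, and also without the filter on low counts (edgeR adjusted p 0.0684) and without the 2 libraries of unlike tilt (edgeR adjusted p 0.0537). That of Il27 was lost without any 1 of 5 (isotype 4 h replicate 1, FcMR 4 h replicate 2, isotype 24 h replicates 1 and 3, FcMR 24 h replicate 2), with an edgeR adjusted p of up to 0.0991, and without the 2 libraries of unlike tilt its adjusted p was 5.29e-05. With GC correction Ebi3 was called as well (edgeR adjusted p 0.0352, and 0.0206 with a replicate block added). From 4 to 12 h the effect on Il23a fell by 2.40 (SE 0.408, edgeR adjusted p 0.00237), and no other of the 5 was called, where 5.39% of all genes were. Without the 2 libraries of unlike tilt Il27 was called as well (-1.53, edgeR adjusted p 0.00321), and so it was without isotype 4 h replicate 3 alone (-1.79, edgeR adjusted p 0.00619). With GC correction both Il27 (-0.90, edgeR adjusted p 0.0346) and Ebi3 (0.46, edgeR adjusted p 0.0344) were called. From 12 to 24 h the effect on Il12a grew by 1.52 (SE 0.347, edgeR adjusted p 0.0285), the only call among the 5, where 1.73% of all genes were called. This call was lost without any 1 of isotype 12 h replicates 2 and 3, FcMR 12 h replicates 1 and 2, the 3 isotype 24 h libraries, and FcMR 24 h replicates 2 and 3, with values of 1.41 to 1.63 and edgeR adjusted p-values of 0.0513 to 0.102, and also without the filter, with DESeq2 and with limma-voom (adjusted p 0.061 to 0.0836). The change of Il12b over that interval was -0.86 (edgeR adjusted p 0.0511). It was called with the replicate block, GC correction, DESeq2 or limma-voom (-0.89 to -0.87, adjusted p 0.00291 to 0.0379) and without any 1 of isotype 4 h replicate 3, FcMR 12 h replicate 3, isotype 24 h replicate 1 or FcMR 24 h replicate 2 (-1.04 to -0.85). Il27 was at -1.59 (edgeR adjusted p 0.398), and was called without the 2 libraries of unlike tilt (-1.83, edgeR adjusted p 0.013).

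Within the FcMR libraries the alpha chains parted in time. From 4 to 12 h Il23a fell by 7.12 (SE 0.238) on the log2 scale, Il27 by 2.79 (SE 0.325) and Il12b by 1.06 (SE 0.151), each called by edgeR. Il12a (-0.13, edgeR adjusted p 0.563) and Ebi3 (-0.14, edgeR adjusted p 0.643) were not called, where 40.3% of all genes were. Il23a passed the filter on low counts through the 4 h libraries alone, so the filter favoured its fall from 4 h. Without FcMR 12 h replicate 1, and without both libraries of unlike tilt, the Ebi3 value was 0.07. With GC correction it was -0.52 and called (edgeR adjusted p 0.000122). From 12 to 24 h Il27 fell by 3.43, Ebi3 by 1.43, Il12b by 1.05 and Il12a by 0.57 on the log2 scale. Each was called, where 23.8% of all genes were. Il23a fell by 1.73 and was called too, from 5 to 12 counts a library at 12 h and 0 to 7 at 24 h. The fall of Il12a was the smallest and lost its edgeR call without FcMR 12 h replicate 2 (-0.53), FcMR 12 h replicate 3 (-0.49) or FcMR 24 h replicate 1 (-0.43). It was also lost with the authors' normalization factors (-0.38, edgeR adjusted p 0.218), without the filter (-0.55, edgeR adjusted p 0.0529) and with only the groups compared (-0.52, edgeR adjusted p 0.103). That of Il23a lost it without FcMR 24 h replicate 1 (-1.37, edgeR adjusted p 0.0603).

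The isotype libraries followed a course of their own. From 4 to 12 h Il23a fell by 4.72, Il27 by 1.74 and Il12b by 1.51 on the log2 scale. Each was called by edgeR, where 35.2% of all genes were. Here too the filter favoured the fall of Il23a. Il12a was at -0.57 (edgeR adjusted p 0.0557). It was called with RLE size factors (-0.58, edgeR adjusted p 0.0474), the authors' factors (-0.73, edgeR adjusted p 0.0475) or the replicate block (-0.57, edgeR adjusted p 0.0315), and without any 1 of untreated replicates 1 and 2 and FcMR 24 h replicate 2. Ebi3 was at -0.35 (edgeR adjusted p 0.227). It was called with GC correction (-0.98, edgeR adjusted p 5.82e-07), but was at -0.01 (edgeR adjusted p 0.958) without the 2 libraries of unlike tilt. Without isotype 4 h replicate 3, or without both of those libraries, the fall of Il27 was 0.99. From 12 to 24 h Il12a fell by 2.08, Il27 by 1.84 and Ebi3 by 0.996, 3 of 5 genes, where 16.7% of all genes were called. The call of Il27 was lost without isotype 24 h replicate 2 (-1.60, edgeR adjusted p 0.0677) and with limma-voom (-1.79, adjusted p 0.0668). Il12b (-0.19, edgeR adjusted p 0.417) and Il23a (0.02, edgeR adjusted p 0.986) were not called.

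The rise that the isotype libraries themselves showed over untreated cells sets the background of the FcMR effect. At 4 h isotype was above untreated by 4.64 for Il27, 4.56 for Il12a, 4.34 for Il12b and 3.92 for Il23a on the log2 scale. Each was called by edgeR, where 35.6% of all genes were. Without the 2 libraries of unlike tilt Il27 was at 3.91 (edgeR adjusted p 1.47e-08), the lowest of these 4. Il23a passed the filter through the 4 h libraries alone, so the filter favoured its rise. Ebi3 was at 0.47 (edgeR adjusted p 0.114), and was called without untreated replicate 1 (0.68, edgeR adjusted p 0.0472) or isotype 4 h replicate 2 (0.64, edgeR adjusted p 0.0378). Its value was 0.92 with GC correction, which called it (edgeR adjusted p 5.87e-07), and 0.17 without the 2 libraries of unlike tilt, which did not (edgeR adjusted p 0.454). At 12 h Il12a (3.99), Il27 (2.90) and Il12b (2.83) were higher, 3 of 5 where 41.6% of all genes were called. Il23a was at -0.81 (edgeR adjusted p 0.141) and Ebi3 at 0.12 (edgeR adjusted p 0.709), or -0.06 with GC correction (edgeR adjusted p 0.627). At 24 h Il12b (2.64) and Il12a (1.91) were higher and Ebi3 was lower (-0.88, edgeR adjusted p 0.00559), 3 of 5 where 42.2% of all genes were called. Il27 was at 1.06 (edgeR adjusted p 0.204). It was called without the 2 libraries of unlike tilt (1.09, edgeR adjusted p 0.0383) and with GC correction (1.21, edgeR adjusted p 0.0409, or 1.24, edgeR adjusted p 0.0369, with the block). Il23a was at -0.79 (edgeR adjusted p 0.329). The Il12a value rests on 0 to 5 counts a library and lost its call without untreated replicate 1 (1.54), untreated replicate 3 (1.78) or isotype 24 h replicate 1 (1.84).

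Set against the same untreated libraries, FcMR raised Il12a, Il12b, Il27 and Ebi3 at 4 h, where 48.2% of all genes were called by edgeR. Il23a was called higher as well, but the filter that it passed through the 4 h libraries alone favoured this. The log2 differences were 7.73 for Il23a, 7.57 for Il27, 7.40 for Il12b, 7.38 for Il12a and 1.40 for Ebi3. At 12 h 4 of 5 were higher, where 48.1% of all genes were called: Il12a by 7.25, Il12b by 6.34, Il27 by 4.78 and Ebi3 by 1.26, while Il23a was at 0.60 (edgeR adjusted p 0.244). At 24 h Il12a (6.68) and Il12b (5.29) remained called, 2 of 5 where 51.4% of all genes were called. Il27 was at 1.35 (edgeR adjusted p 0.0609), and it was called with GC correction (1.79, edgeR adjusted p 0.00101) and without isotype 4 h replicate 2 (1.39, edgeR adjusted p 0.027), isotype 4 h replicate 3 (1.39, edgeR adjusted p 0.01), FcMR 4 h replicate 2 (1.40, edgeR adjusted p 0.0478), FcMR 12 h replicate 1 (1.39, edgeR adjusted p 0.0379) or FcMR 12 h replicate 2 (1.39, edgeR adjusted p 0.0468). Without the 2 libraries of unlike tilt it was called as well (1.39, edgeR adjusted p 0.00151), as it was with RLE size factors, the authors' factors or DESeq2 (1.36 to 1.39, adjusted p 0.0235 to 0.0499). Il23a was at -1.13 (edgeR adjusted p 0.104), and was called without FcMR 24 h replicate 2 (-2.58, edgeR adjusted p 0.0328) and with limma-voom (-1.38, adjusted p 0.0394). Ebi3 was at -0.17 (edgeR adjusted p 0.557), but with GC correction the direction turned and it was called higher (0.36, edgeR adjusted p 0.00484, or 0.35, edgeR adjusted p 0.00301, with the block). The comparisons with untreated share their untreated libraries, and the fitted values of Il12a, Il23a and Il27 rest on untreated levels of 0 to 9 counts.

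The next question was for which dimers both subunit mRNAs were present at each time. Levels of different genes were compared per length, as estimated counts divided by the mean length of the coding transcripts and scaled to the same sum in every library (a level in the form of TPM). A library was taken to hold a subunit when it had more than 3 counts. This cut is not scaled to depth, which differed 12.1-fold between libraries. For Il23a in isotype at 12 h, replicate 2 fell short at 0.293 CPM (2 counts) while replicate 3 passed at 0.182 CPM (12 counts). Il12a in isotype at 24 h and Il27 in untreated libraries each fell short through the library with 3 counts. Absence of a pair can thus reflect depth. Protein, pairing and secretion were not measured, and bulk RNA does not show whether both mRNAs were in the same cells.

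Both IL-12 mRNAs were present in all 3 libraries of 5 of the 7 groups, namely FcMR at 4, 12 and 24 h and isotype at 4 and 12 h. Il12a was the lower of the pair in every library. Its level per length was 21.9 ± 1.95 TPM (SD, n = 3) with FcMR at 4 h, 22.4 ± 1.2 at 12 h and 16.1 ± 2.44 at 24 h. In isotype it was 3.62 ± 0.44, 2.47 ± 0.387 and 0.591 ± 0.0775 TPM. Il12b was at 1617 ± 196, 879 ± 160 and 451 ± 98.2 TPM with FcMR, which made the ratio of the means 73.7, 39.3 and 28.1. Through all 3 times FcMR therefore gave an Il12a level per length several times that of isotype at its highest, and the excess of Il12b over Il12a shrank as Il12b fell.

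Both IL-23 mRNAs were present in 4 of the 7 groups, namely untreated, isotype at 4 h and FcMR at 4 and 12 h. They were present in only 2 of them, isotype and FcMR at 4 h, when more than 10 counts were asked for. Il23a was below Il12b in every library. Its 4 h level was 87.0 ± 7.3 TPM in FcMR libraries and 7.28 ± 1.02 in isotype libraries. At 12 h it was at 0.69 ± 0.202 TPM with FcMR, where Il12b was 1275 times as high, and at 24 h at 0.158 ± 0.163 TPM. At 4 h with FcMR the Il23a level per length was above that of Il12a in each library, and at 12 and 24 h it was below it. The IL-23 pair was thus confined to the 4 h groups only by the cut of more than 10 counts, which is not scaled to depth either. Il12b mRNA without a matching Il23a level remained at 12 and 24 h.

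Both IL-27 mRNAs were present in 6 of the 7 groups, all but untreated, and in 4 of them with more than 10 counts (FcMR and isotype at 4 and 12 h). Ebi3 was the more abundant mRNA per length in all libraries of 6 groups. With FcMR at 4 h this was the other way round in all 3 libraries: Il27 was at 102 ± 14 TPM and Ebi3 at 76.3 ± 6.57. With isotype at 4 h Il27 was at 14.8 ± 9.12 and Ebi3 at 45.9 ± 13.1 TPM. At 12 h with FcMR Il27 was at 16.6 ± 5.35 and Ebi3 at 77.8 ± 17.3 TPM, and at 24 h Il27 was at 1.61 ± 0.373 and Ebi3 at 31.0 ± 3.36.

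**Figure D3:**
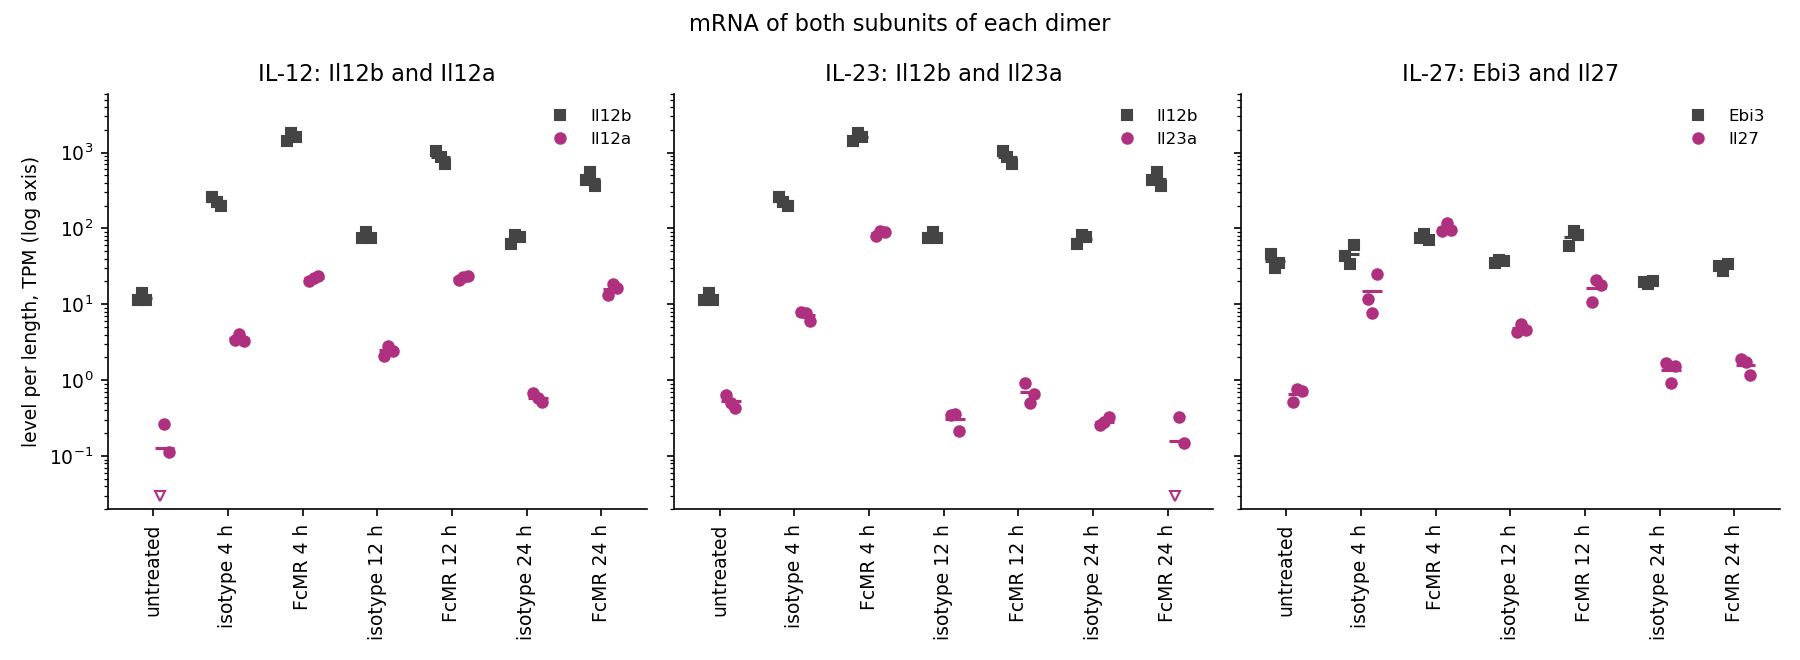
Level per length (TPM, log axis) of the beta chain (squares) and the alpha chain (circles) of IL-12, IL-23 and IL-27 in each library of the 7 groups, with the mean of 3 as a line; open triangles are libraries with 0 counts. Il12b lies above Il12a and Il23a in every library, and Il27 lies above Ebi3 with FcMR at 4 h only.

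Ratios of subunits within a library do not depend on a factor that scales the whole library, but factors that vary by gene can change them. The log2 ratio of Ebi3 to Il27 per length was -0.33, -0.51 and -0.42 in the FcMR libraries of 4 h and 1.9, 2.16 and 1.25 in the isotype libraries, a difference of -2.19. At 12 h it was 2.45, 2.13 and 2.2 with FcMR and 3.02, 2.82 and 3.01 with isotype, a difference of -0.69. At 24 h it was 4.07, 3.97 and 4.83 against 3.56, 4.31 and 3.73, a difference of 0.43 with overlap. At 4 h the log2 ratio of Il12b to Il23a was 4.18, 4.32 and 4.14 with FcMR against 5.04, 4.84 and 5.02 with isotype, a difference of -0.75, and that of Il12a to Il23a was -1.97, -2.06 and -1.93 against -1.21, -0.92 and -0.89, a difference of -0.98. FcMR libraries of 4 h thus held relatively more Il23a and Il27 than isotype libraries. Il12b to Il12a differed by 0.23 at 4 h and 0.26 at 12 h, with overlap. From the authors' normalized values its difference at 4 h was 0.59. At 24 h the ratio of Il12b to Il12a was left out of the test, which asked for more than 3 counts in each library. There the log2 ratio was 5.01, 4.93 and 4.47 with FcMR and 6.55, 7.12 and 7.21 with isotype, without overlap, and the isotype values rest on 5, 4 and 3 counts of Il12a. In a two-sided exact permutation test, 3 libraries against 3 cannot go below p = 0.1, which was the value for the 4 ratios without overlap. Adjusted over the 7 ratios compared it was 0.175, and for the others 0.35 to 0.4.

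Receptors and signal transducers of the family, regulators of the subunit genes and response genes were read from a list of 34 genes, of which 31 were in the table and 30 were tested. With FcMR 13 were called higher at 4 h, 11 at 12 h and 12 at 24 h. Only 1 was called lower at 4 h, and 2 at each later time. Over all genes 8.62%, 8.61% and 11.4% were called higher at these times and 9.13%, 7.49% and 9.44% lower, which is also the background of the counts by role that follow. Over 32 alternatives the number called higher was 10 to 18 at 4 h, 10 to 15 at 12 h and 11 to 16 at 24 h. The list's median log2 difference was 0.55, 0.14 and 0.33, beside medians over all genes of -0.07, -0.02 and 0.01. Responding cells of IL-12 and IL-23 are mainly T and NK cells, whose markers were near 0 here.

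Among the 5 receptor genes Il6st, the signalling chain that IL-27 shares with IL-6, was lower with FcMR at each time. Isotype and FcMR libraries held 203 ± 23.6 and 122 ± 5.76 CPM at 4 h, 171 ± 12.7 and 92.8 ± 7.19 at 12 h, and 166 ± 6.43 and 109 ± 7.55 at 24 h. The log2 differences were -0.74, -0.88 and -0.60 (edgeR adjusted p 2.56e-05, 2.5e-06 and 0.000122). Il23r, which binds the Il23a chain, was higher with FcMR at 12 h (11.1 ± 3.88 against 3.79 ± 0.397 CPM, log2 difference 1.53, edgeR adjusted p 0.00344) and at 24 h (12.2 ± 4.63 against 3.29 ± 0.608 CPM, 1.91, edgeR adjusted p 0.000632). At 4 h it was at 1.11 (edgeR adjusted p 0.0701). It was called there without isotype 4 h replicate 2 (1.55, edgeR adjusted p 0.0312) and without FcMR 24 h replicate 3 (1.12, edgeR adjusted p 0.0492), and with DESeq2 (1.16, adjusted p 0.0395) and GC correction (1.29, edgeR adjusted p 0.00283). Il12rb1, Il12rb2 and Il27ra were not called at any time by edgeR without GC correction. With it Il12rb2, a chain of the IL-12 receptor, was called at 4 h (0.42, edgeR adjusted p 0.0139) and at 24 h (-0.41, edgeR adjusted p 0.0344), and limma-voom called Il27ra, the specific chain of the IL-27 receptor, at 12 h (-0.69, adjusted p 0.0156).

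Of the 5 transducers, 2 were called higher at each time and none lower. Jak2, the kinase that sits on the IL-12 and IL-23 receptors, was higher by 0.59, 0.52 and 1.19 on the log2 scale at 4, 12 and 24 h. Its 4 h call was lost with only the groups compared (0.59, edgeR adjusted p 0.0653). Its 12 h call was lost without isotype 12 h replicate 1 (0.53, edgeR adjusted p 0.062), isotype 12 h replicate 3 (0.46, edgeR adjusted p 0.0947) or FcMR 12 h replicate 1 (0.38, edgeR adjusted p 0.132). Stat3, which transduces IL-23 and IL-27 signals, was higher at 4 h (0.88, edgeR adjusted p 2.53e-05). It was at 0.12 at 12 h (edgeR adjusted p 0.56) and 0.21 at 24 h (edgeR adjusted p 0.219), and the difference between the effects at 4 and 12 h was called (-0.76, edgeR adjusted p 0.0094). With GC correction Stat3 was called at 12 h (0.18, edgeR adjusted p 0.0469) and at 24 h (0.25, edgeR adjusted p 0.00612), and without FcMR 24 h replicate 2 at 24 h (0.32, edgeR adjusted p 0.0485). Stat4, the main IL-12 transducer, had 4 h levels of 22.3 ± 0.902 CPM in FcMR and 23.5 ± 1.16 in isotype libraries. It was at 51.4 ± 9.11 against 29.4 ± 3.02 CPM at 12 h (log2 difference 0.81, edgeR adjusted p 0.00358) and at 97.1 ± 28.2 against 40.2 ± 3.7 at 24 h (1.27, edgeR adjusted p 4.3e-05).

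Of the 11 activators, 6 were called higher at 4 h, 4 at 12 h and 4 at 24 h, and none lower. The 4 h count includes Irf8, a transcription factor of macrophages and dendritic cells, whose call was lost with only the groups compared (0.59, edgeR adjusted p 0.121) and without any 1 of isotype 4 h replicates 1 and 2 and FcMR 4 h replicate 2 (0.48 to 0.57). The 24 h count includes Nfkb1, an NF-kappaB subunit, whose call was lost with the authors' factors (0.35, edgeR adjusted p 0.0613) and without FcMR 24 h replicate 3 (0.33, edgeR adjusted p 0.0519). Nfkbiz, an NF-kappaB cofactor, was higher by 2.12, 1.34 and 1.24 on the log2 scale. Batf3, a dendritic cell transcription factor, was at -0.77 at 12 h (edgeR adjusted p 0.344) and -1.03 at 24 h (edgeR adjusted p 0.176), and was called at 24 h with GC correction (-0.74, edgeR adjusted p 0.0151) and without the 2 libraries of unlike tilt (-1.05, edgeR adjusted p 0.0321). Of the 7 restraints, 3 were called higher at 4 h, 2 at 12 h and 3 at 24 h, and 1 was lower at both later times. Il10, which encodes a cytokine that represses Il12b transcription, was at 12.8 ± 1.58 CPM with FcMR against 1.94 ± 0.352 with isotype at 4 h, 10.5 ± 1.94 against 0.635 ± 0.117 at 12 h and 1.68 ± 0.64 against 0.0756 ± 0.0672 at 24 h. Its log2 differences were 2.69, 4.04 and 4.37, all called by edgeR. The isotype level at 24 h lies below what 3 counts a library would give (0.294 to 0.386 CPM), so the value of 4.37 is uncertain in size. Tnfaip3, an inhibitor of NF-kappaB signalling, was higher by 1.34, 1.26 and 0.75, and Zc3h12a, an RNase that degrades cytokine mRNAs, by 1.62 at 4 h (edgeR adjusted p 0.00864). The Zc3h12a call was lost with only the groups compared (1.62, edgeR adjusted p 0.0647), and the gene was also called at 12 h with GC correction (0.77, edgeR adjusted p 0.00976) and without the 2 libraries of unlike tilt (0.97, edgeR adjusted p 0.0188). Of the 6 response genes, Cxcl9 and Cxcl10, chemokines of the interferon response, were the 2 tested. Cxcl9 was higher by 1.71, 1.52 and 2.10 and Cxcl10 by 2.15, 1.91 and 1.70 on the log2 scale. Ifng was in the table but did not pass the filter.

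**Figure D4:**
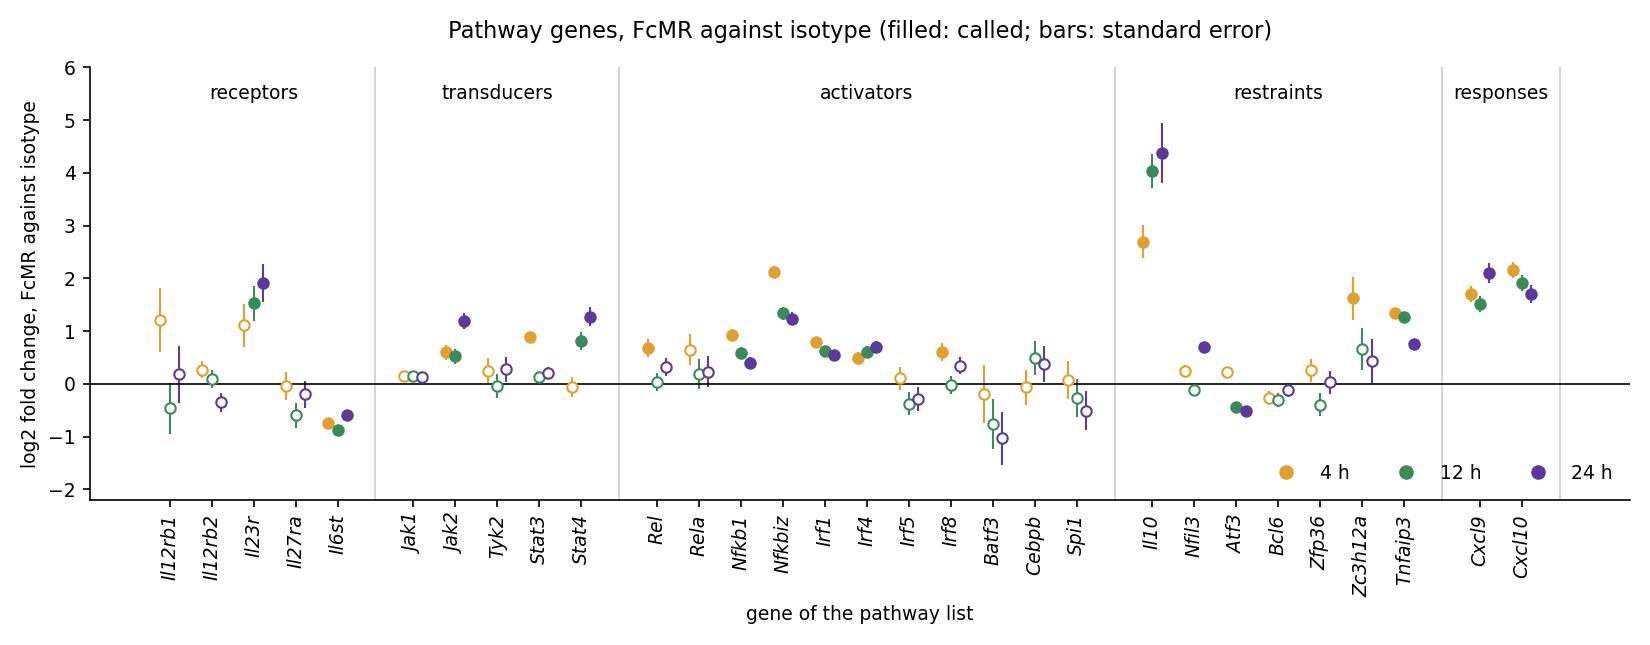
Log2 fold change of FcMR against isotype at 4, 12 and 24 h for the 30 tested genes of the pathway list, grouped by role, with standard errors; filled points were called by edgeR at an adjusted p under 0.05. Il6st lies below 0 at all 3 times. Il10 lies highest, at 2.69 to 4.37, and its isotype level at 24 h was below 3 counts a library.

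Cell type markers moved with time and in part with FcMR. The 8 macrophage markers summed to 25830 to 27760 CPM with FcMR and 31620 to 35840 with isotype at 24 h, without overlap. At 4 h they were at 29170 to 29620 and 28000 to 32130 CPM, and at 12 h at 20410 to 24100 and 23440 to 25620, with overlap. The summed level of 7 dendritic cell markers, most of it from Ccr7, was 326 to 350 CPM in untreated libraries. It was 327 to 455 CPM in isotype and 478 to 594 in FcMR libraries at 4 h, 580 to 662 and 635 to 789 at 12 h, and 450 to 522 and 744 to 782 at 24 h. Of these markers only Cd209a was at 0 in any library (3 of 21). The 8 neutrophil markers summed to 1398 to 1623 CPM in untreated libraries and to 183 to 228 at 24 h, without a gap between FcMR and isotype at any time. The part of these shifts in the subunit levels was not tested. In bulk RNA, fewer cells of a type and less RNA per cell cannot be told apart.

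The genes with the most similar course over the 21 libraries were sought by Pearson's r on log2 CPM among 10684 protein-coding genes, as a description in which all genes share the libraries and their depth. For Il12a these were Irak3, an inhibitor of Toll-like receptor signalling (r = 0.98), Cct3 and Slx4ip, and for Il12b Car13 (r = 0.97), Zeb1 and Ifi205. Il23a was closest to Cdkn1a (r = 0.98), the cell-cycle inhibitor gene, then to Ptprj and Usp12, whose levels also peaked at 4 h. Il27 was closest to Larp1 (r = 0.99), Ch25h and Tor3a, and Ebi3 to Ehd1 (r = 0.97), Nfkb2 and Itgal. Among the 5 genes, Il12a and Il12b had r = 0.96, Il27 had 0.85 with Ebi3 and 0.84 with Il23a, and the lowest was 0.41 between Il12a and Il23a.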

How the data were processed

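Gene expression was measured by RNA-seq of mouse marrow-derived macrophages in 21 libraries (75 nt single-end reads, TruSeq RNA kit v2, per the labels' protocols). The authors deposited a raw table of whole-number estimated counts for 23250 genes and a second table of normalized signal, whose ratio to the raw table varies by gene and by library. The submitters' processing notes name kallisto 0.44.0, CASAVA 1.8.2, DESeq2 without a version, and the builds GRCm38 and mm10, without saying which step each served. The plan had assumed plain counts, and the same test was kept for the estimated counts, which needed no rounding. Estimated counts can move reads between similar transcripts, and the smallest sum of a gene over all libraries is 10.

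IDs were matched without version to GENCODE M21. Each library's group and replicate number come from its title. One edgeR 4.0.16 fit (R 4.3.3; TMM scaling, filterByExpr with a minimum of 10 counts, quasi-likelihood test) of all 21 libraries gave every comparison, with Benjamini-Hochberg adjustment over the 13468 genes tested and a call at an adjusted p under 0.05. The standard error is the absolute log2 fold change divided by the root of F. Levels are CPM after TMM, or TPM-like per length over the mean length of coding transcripts. Libraries held 5532225 to 66729533 counts, so that 3 counts correspond to 0.0454 to 0.559 CPM, which covers counting error only. Every replicate pair differed beyond counting noise (chi-square over degrees of freedom at least 3.09).

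The 5 genes, the pathway and marker lists, the tests and the alternatives were chosen with earlier results of these data known. Named genes are the 5 members in every comparison; of the pathway list every called receptor or transducer and up to 6 others with the highest absolute fold in the FcMR comparison of each time; the 3 genes of most similar course for each member; and Mrc1. Irf8, Nfkb1, Il12rb1, Il12rb2 and Il27ra were named after their values were seen. One gene of the pathway list is not reported here and is left out of its counts. Alternatives were RLE factors, the factors implied by the authors' normalized signal as offsets, no filter, DESeq2 1.42.0, a filter at a mean of 10 counts, voom of limma 3.58.1, only the groups compared, a replicate block, GC correction (lowess span 0.3) with and without the block, omission of the 2 libraries out of title order, and omission of each library. On simulated data for FcMR against isotype at 4 h, with 200 of 13215 genes changed, the fit called 97% of genes changed 4-fold and 70% of those changed 2-fold. Of its 178 calls, 11 were false. These simulated libraries had no GC tilt and no other difference between groups, and genes of low mean count were not changed. The shares therefore do not cover subunits with few counts.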

Additional observations from a re-analysis of the deposited data

Results flagged for a closer look

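The FcMR effect on 2 of the 5 genes differed between neighbouring times by a test of the difference itself. For Il23a it was lower at 12 h than at 4 h, with a log2 difference of -2.40 (edgeR adjusted p 0.00237), and it was called in all alternatives run, with values of -2.80 to -2.29. At 12 h Il23a rests on 2 to 12 counts a library, and it passed the expression filter through the 4 h libraries alone. For Il12a the effect was higher at 24 h than at 12 h by 1.52 (edgeR adjusted p 0.0285). This call was lost without the expression filter (1.51, adjusted p 0.0623), with DESeq2 (1.51, adjusted p 0.061), with limma-voom (1.41, adjusted p 0.0836) and without any 1 of 9 libraries, and the isotype libraries of 24 h held 3 to 5 counts of Il12a.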

How the results depend on the processing

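Of 162 values of the 5 genes for FcMR against isotype under alternatives that keep or drop whole sets of libraries or settings, 159 kept their direction and side of the threshold, as did 307 of 315 values with 1 library left out. Il23a at 12 and 24 h and Il27 at 24 h were not tested with only the groups compared and are not among the 162. The exceptions were Ebi3 at 4 h with only the groups compared (0.92, adjusted p 0.067), Ebi3 at 24 h without the filter (0.72, adjusted p 0.0511), with limma-voom (0.67, adjusted p 0.094) and with 1 of 5 libraries left out (0.63 to 0.75; 0.63 to 0.81 over all 21), Il23a at 12 h with 1 of 2 libraries left out (1.03 to 1.54 over all 21), and Il23a at 24 h, which ran from -1.82 to 0.012. The cause was not tested. The count of the 5 genes called changed by more than 1.5 times for FcMR against untreated at 24 h with GC correction, with or without the block (4.0, against 2), for FcMR 24 h against 12 h with only the groups compared (3.0, against 5; 3 to 5 with 1 library left out), and for the change from 4 to 12 h with GC correction, with or without the block (3.0, against 1) and without the 2 libraries out of title order (2.0; 1 to 2 with 1 library left out). For the change from 12 to 24 h the count was 0 without the filter, and 2.0 with the replicate block, with GC correction, with both together, and without those 2 libraries (against 1; 0 to 2 with 1 library left out). For the 3 times jointly it was 2 to 4 with 1 library left out. It also changed by 1 gene, up for the GC correction in isotype against untreated at 4 h (5) and 24 h (4), FcMR or isotype 12 h against 4 h (4 each) and the 3 times jointly (5), up for RLE size factors, the authors' factors and the block in isotype 12 h against 4 h (4 each), up for RLE size factors, the authors' factors, DESeq2 and limma-voom in FcMR against untreated at 24 h (3 each) and up without the 2 libraries in isotype against untreated at 24 h (4) and FcMR against untreated at 24 h (3). It went down in FcMR 24 h against 12 h with the authors' factors or no filter (4), and jointly without the filter or the 2 libraries (3). It also went down in isotype 24 h against 12 h with limma-voom (2), and in FcMR against isotype at 24 h without the filter or with limma-voom (2). With only the groups compared it went down in FcMR against isotype at 4 h (4) and isotype against untreated at 24 h (2). All these counts include Il23a where it was called. In FcMR against isotype at 12 h they are 5 with Il23a, and 4 with only the groups compared, where Il23a was not tested. Direction reversed for Ebi3 in isotype against untreated at 12 h with GC correction (-0.062, and -0.052 with the block; -0.035 to 0.325 with 1 library left out), FcMR against untreated at 24 h with GC correction (0.36, adjusted p 0.00484, and 0.35 with the block; -0.324 to 0.036 with 1 library left out), FcMR 12 h against 4 h without the 2 libraries (0.069; -0.27 to 0.072 with 1 left out) and the change from 4 to 12 h (-0.11 to 0.382 with 1 left out); and for Il23a in isotype 24 h against 12 h with the replicate block (-0.017; -0.343 to 0.16 with 1 left out).

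With GC correction 3685 genes were called at 4 h and 3340 at 12 h, with the block added 3882 and 3511, without the 2 libraries 3898 at 4 h, with only the groups compared 868 and without FcMR 4 h replicate 2 1589, against 2390 and 2169. Nothing states that same-numbered libraries belong together. Their deviations from the group means correlated at -0.166 to 0.199 between FcMR and isotype, and at up to 0.338 between isotype and untreated (4 h, replicate 2). Such values cannot show whether they shared a mouse or culture. The replicate block called 2541, 2290 and 2911 genes and changed no call of the 5 genes for FcMR against isotype. From the authors' normalized values the log2 ratio of Il12b to Il12a differed by 0.59 at 4 h, against 0.23 from the counts. That of Il12a to Il23a differed by -1.35, against -0.98. Requiring more than 10 counts left both IL-23 mRNAs in 2.0 groups. Levels of a few counts a library, as for Il23a at 24 h (0 to 7 counts), set the limit of what can be compared.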
